A study of Mus musculus with 4 samples.

Results

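The nuclear genes of respiratory complex I were followed in whole lenses of Tdrd7 -/- mice, called Tdrd7 null here, and of wild type control mice. Tdrd7 encodes a protein with Tudor domains and is mutated in inherited cataract. The genes were all rows of the deposited table whose symbol starts with Nduf, with pseudogenes left out, which gave 44 of the 10790 genes listed. They cover subunits and assembly factors, and all 44 passed the filter on low values. Ndufa4l2, Ndufaf8 and Ndufb1 were not analysed here.

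Lenses were taken at postnatal day 4 from Tdrd7 -/- mice and from wild type controls, with 2 libraries of each genotype and 15 lenses pooled in each library. The labels call the libraries biological replicates and do not say whether pools shared animals, so p-values measure the spread between pools. In the main fit limma took that spread more from genes of similar level (11.1 prior degrees of freedom) than from each gene's own pools (2 residual degrees). The sources used here do not say how the Tdrd7 allele was made. Over all listed genes the Tdrd7 null libraries held 39080159 and 33920522 reads and the control libraries 41096488 and 42767535, and a single complex I gene had between 115 and 11573 reads in a library. Tdrd7 had 165 and 96.6 scaled reads in Tdrd7 null lenses, against 1188 and 972 in control lenses, lower in both as the genotype labels have it. A scaled read is a read count after division by its library's factor, and transcript length is not corrected for. Lens markers were abundant in every library, with Cryaa between 125016 and 141976 scaled reads, and Lim2 was not analysed here. Of the 10 lens markers listed, Bfsp2 differed most in proportion between the control pools, at 751 and 328 scaled reads in replicates 1 and 2. It had 671 and 694 in Tdrd7 null libraries. None of the 6 macrophage, 5 red blood cell, 7 retina and neuron or 5 muscle markers was in the table, which does not show that such cells were absent. Of 8 endothelial markers 7 were listed, with summed levels of 21.4 and 26.0 scaled reads in Tdrd7 null and 25.4 and 18.7 in control libraries. In control replicates 1 and 2 Cdh5 had 3.47 and 1.09 scaled reads, Kdr 2.51 and 0.875 and Tie1 1.42 and 0.449. Cldn5 had 2.05 and 0.733 there and Pecam1 1.66 and 1.06, while Tek (7.26 and 7.02) and Egfl7 (7.02 and 7.5) differed little. Of 5 pericyte markers 4 were listed, with summed levels of 64.1 and 56.4 in Tdrd7 null and 67.7 and 67.9 in control libraries, and of 6 ciliary body and pigment epithelium markers only Mitf was. Of these markers Notch3 and Pdgfrb fell, with log2 fold changes of -0.50 and -0.34. The other pericyte markers listed, Rgs5 and Acta2, stood at 0.35 and 0.06 and did not pass. In control replicates 1 and 2 Rgs5 had 7.53 and 2.86 scaled reads, Notch3 27.1 and 22.6 and Pdgfrb 11 and 10.3. Acta2 went the other way, at 22.2 and 32.2, so the like control sums do not show that the pools matched. Of 4 lens epithelium markers Gja1 rose (0.33) and Foxe3 fell (-0.43), while Pax6 and Cdh1 stood at 0.01 and -0.02. With the trend on GC content and length removed Notch3, Pdgfrb, Gja1 and Foxe3 stood at -0.25, -0.19, 0.23 and -0.16. All were short of the threshold (limma adjusted p = 0.13, 0.282, 0.0937 and 0.131). The part of these cells in the results on complex I was not tested.

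Complex I is the large enzyme of the inner mitochondrial membrane that passes electrons from NADH to ubiquinone and pumps protons. Its peripheral arm reaches into the matrix and carries the flavin and the iron-sulfur clusters, and its membrane arm holds the pumps, whose central subunits are encoded by mitochondrial DNA. The nuclear genome encodes the remaining core subunits, a shell of accessory subunits and the assembly factors. In the lens, mitochondria are kept in the epithelium and in young outer fiber cells and are removed as fiber cells mature. In RNA from whole lenses, fewer cells of a type and less RNA per cell cannot be told apart.

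Most of the 44 genes differed little between the genotypes. In Tdrd7 null lenses 10 genes rose and 2 fell (limma adjusted p under 0.05), where 10.1% of all 10696 tested genes rose and 7.88% fell. The 12 genes make 27.3% of the family, against 18.0% of all tested genes called in either direction. The log2 fold changes, taken on log2(scaled reads + 1), ran from -0.29 for Ndufs7 to 0.45 for Ndufaf4 with a median of 0.08, against a median of -0.01 over all tested genes. The value lay above 0 in 29 genes (65.9%), against 48.9% of all tested genes. Both Tdrd7 null libraries stood above both control libraries in 20 genes (45.5%) and below both in 8 (18.2%), where 30.2% and 31.3% of all tested genes did so, or 61.5% in either direction. A further 7 genes had adjusted p between 0.05 and 0.1. Scaling by the total without the crystallins gave 10 higher and 4 lower members, and 766 higher and 1262 lower genes in all, against 1077 and 843 with the deposited scaling.

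**Figure D1:**
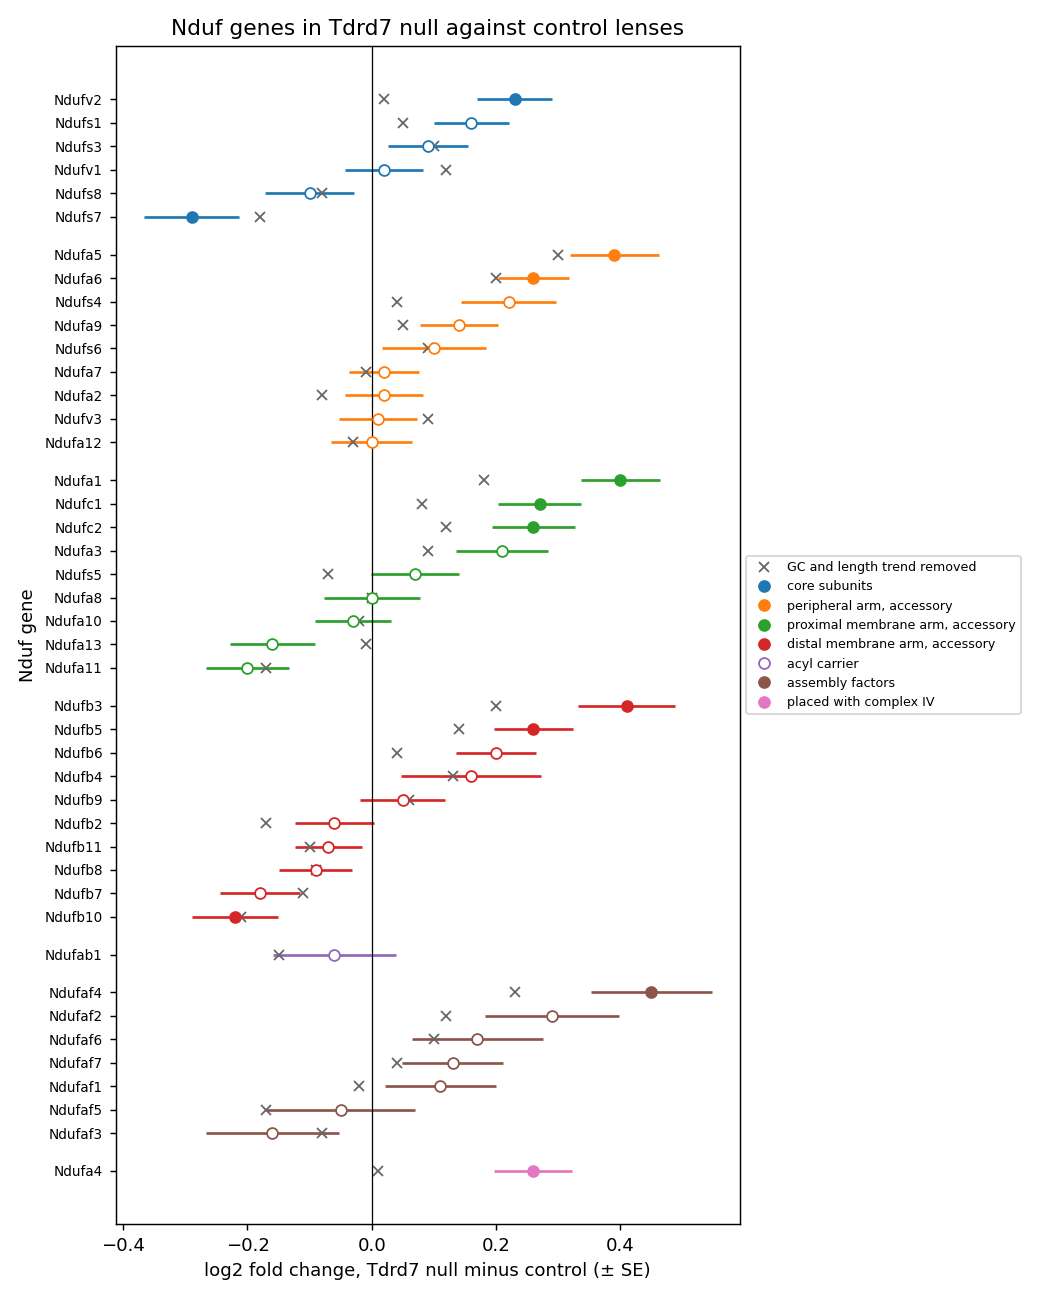
Log2 fold change of 43 of the 44 Nduf genes in Tdrd7 null against control lenses (points, bars are the SE of limma, n = 2 pools per genotype), grouped by place in the complex. Filled points passed the test, open points did not, and crosses give the value with the trend on GC content and length removed; the range is -0.29 to 0.45 before and -0.21 to 0.30 after.

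The 2 control libraries differed from each other in these genes more than the 2 Tdrd7 null libraries did. Control replicate 2 was above control replicate 1 in 42 of the 44 genes, with a median log2 difference of 0.133, while over all tested genes that median was 0.000. Tdrd7 null replicate 2 was above replicate 1 in 27 of 44, with a median difference of 0.017. In 19 of the 44 genes the control libraries lay farther apart than the genotype means did. Summed over the family, scaled reads were 1844 and 1890 in the Tdrd7 null libraries and 1645 and 1793 in control replicates 1 and 2. As a share of all scaled reads this was 0.177% and 0.198% in Tdrd7 null and 0.166% and 0.177% in control libraries.

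Leaving out a library leaves 1 library in its genotype, which has no spread of its own and is assumed to vary like the other genotype, so the p-values of these fits rest on the spread within 1 pair of pools. Without control replicate 1, the family's median log2 fold change was -0.01, and most of the 12 calls were lost. Without control replicate 2, Ndufaf4, Ndufv2, Ndufs7 and Ndufb10 no longer passed, at log2 fold changes of 0.37, 0.27, -0.22 and -0.20. Without Tdrd7 null replicate 2, Ndufc2, Ndufv2, Ndufs7 and Ndufb10 no longer passed, at 0.25, 0.19, -0.23 and -0.14. In each of these fits calls were lost over all tested genes as well, so the loss was not particular to the family. No call of the family was lost without Tdrd7 null replicate 1. With a prior that ignores the intensity trend, limma called none of the 44 genes and 16 genes in all, while 21 of the 44 (47.7%) had an unadjusted p under 0.05 in the fit with the trend, against 33.1% of all tested genes.

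**Figure D2:**
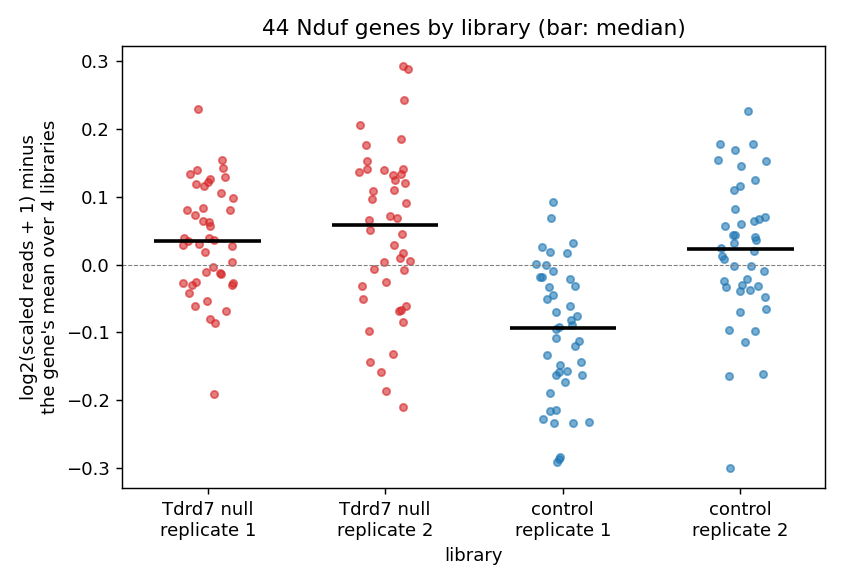
Level of each Nduf gene in each library as log2(scaled reads + 1) minus the gene's mean over the 4 libraries (points, 44 genes; bars are medians). Control replicate 1 has the lowest median, -0.096, and control replicate 2, at 0.024, lies near the Tdrd7 null libraries at 0.036 and 0.058.

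Of the 7 core subunits, which include the carriers of the redox centers and are shared with bacterial complex I, 1 rose and 1 fell. For all tested genes the shares were 10.1% and 7.88%. With lists this small, counts by part of the complex, here and below, are not results about that part. Ndufv2, an iron-sulfur subunit at the NADH end, had 51.7 and 54.7 scaled reads in Tdrd7 null libraries, against 43.9 and 46.7 in control libraries. The groups did not overlap, and the log2 fold change was 0.23 (limma adjusted p = 0.0217, SE 0.0599). Ndufs7, an iron-sulfur subunit next to the ubiquinone site, had 18.4 and 16.8 scaled reads in Tdrd7 null and 20.6 and 23.1 in control libraries. It was lower in both Tdrd7 null libraries, with a log2 fold change of -0.29 (limma adjusted p = 0.0203, SE 0.0766). Without control replicate 1 neither passed, at 0.18 and -0.37 (limma adjusted p = 0.166 and 0.0512).

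No other core subunit passed. Ndufs1, the largest iron-sulfur subunit, had 31.9 and 32.7 scaled reads in Tdrd7 null libraries, against 28.5 and 29.1 in control libraries. These groups did not overlap, but the log2 fold change of 0.16 did not pass (limma adjusted p = 0.0798, SE 0.0605). Ndufs8, another iron-sulfur subunit, had 17.9 and 18.4 in Tdrd7 null and 18.7 and 20.4 in control libraries (log2 fold change -0.10, limma adjusted p = 0.343). In Ndufs3 and Ndufv1 the groups overlapped. Ndufs3, a core subunit without a cluster of its own, had 56.8 and 57.3 scaled reads in Tdrd7 null libraries, against 50.3 and 57.0 in control libraries. Ndufv1, which binds NADH and the flavin, had 27.6 and 28.0 in Tdrd7 null and 26.8 and 28.3 in control libraries. The log2 fold changes of these genes were 0.09 and 0.02 (limma adjusted p = 0.354 and 0.883).

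Among the 9 accessory subunits of the peripheral arm 2 rose and 0 fell, against 10.1% and 7.88% of all tested genes. Their median log2 fold change was 0.10. Ndufa5, a matrix subunit of the ubiquinone-binding module, had 39.3 and 42.2 scaled reads in Tdrd7 null libraries, against 28.9 and 33.1 in control libraries. Both Tdrd7 null libraries stood well above both controls, with a mean of 40.8 ± 2.06 against 31.0 ± 2.95 (SD, n = 2 each), and the log2 fold change came to 0.39 (limma adjusted p = 0.00448, SE 0.0716). Without control replicate 1 the change of 0.29 did not pass (limma adjusted p = 0.0623). Ndufa6, a subunit that docks the acyl carrier protein, had 53.5 and 52.8 scaled reads in Tdrd7 null and 43.2 and 45.3 in control libraries. Its replicates lay close together in each genotype, and the log2 fold change was 0.26 (limma adjusted p = 0.00958, SE 0.0568), or 0.23 without control replicate 1, which did not pass (limma adjusted p = 0.091). Ndufs4, an accessory subunit whose loss in mice gives a model of Leigh syndrome, stood at 0.22 and missed the threshold (limma adjusted p = 0.0605). The other 6, Ndufa2, Ndufa7, Ndufa9, Ndufa12, Ndufs6 and Ndufv3, had log2 fold changes from 0.00 to 0.14, and the groups overlapped in all of these except Ndufa9.

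Accessory subunits of the proximal membrane arm gave 3 increases and 0 decreases among 9 genes, against 10.1% and 7.88% of all tested genes. Ndufa1, a small membrane subunit encoded on the X chromosome and needed for assembly, had 286 and 326 scaled reads in Tdrd7 null libraries, against 226 and 237 in control libraries. It had the most reads of the 44 and was higher in both Tdrd7 null libraries, at 306 ± 28.4 against 232 ± 8.34 (SD, n = 2 each), which gave a log2 fold change of 0.40 (limma adjusted p = 0.00245, SE 0.0641). Without control replicate 1 it was 0.36 (limma adjusted p = 0.0451, with the spread taken from the Tdrd7 null pools alone). Ndufc1, a small accessory subunit, had 72.9 and 73.7 scaled reads in Tdrd7 null and 56.6 and 65.2 in control libraries, a log2 fold change of 0.27 (limma adjusted p = 0.0171, SE 0.0662). Ndufc2, its neighbour in the complex, was close to it in size of change, at 62.1 and 63.0 in Tdrd7 null and 48.6 and 55.8 in control libraries (log2 fold change 0.26, limma adjusted p = 0.019). The groups of both genes did not overlap, with control replicate 1 the lowest library, and without it they stood at 0.17 and 0.16 and missed the threshold (limma adjusted p = 0.173 and 0.186). Ndufa11 was lower in both Tdrd7 null libraries, at 43.6 and 40.9 against 45.9 and 51.4 in control libraries, and missed the threshold (log2 fold change -0.20, limma adjusted p = 0.0542). Ndufa3 stood at 0.21 and Ndufa13 at -0.16, and Ndufa8, Ndufa10 and Ndufs5 lay between -0.03 and 0.07, and none of these 5 passed.

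In the distal membrane arm 2 of 10 accessory subunits rose and 1 fell, against 10.1% and 7.88% of all tested genes. Ndufb3 and Ndufb5 are small subunits that span the membrane once. Ndufb3 had 18.8 and 18.1 scaled reads in Tdrd7 null libraries, against 12.8 and 14.6 in control libraries, with a log2 fold change of 0.41 (limma adjusted p = 0.00521, SE 0.0779). Ndufb5 had 64.2 and 64.0 scaled reads in Tdrd7 null and 50.3 and 57.1 in control libraries, with a log2 fold change of 0.26 (limma adjusted p = 0.0178, SE 0.0641). Neither gene's groups overlapped, and without control replicate 1 they stood at 0.32 and 0.17 and missed the threshold (limma adjusted p = 0.0698 and 0.175). Ndufb10, a subunit of the same arm with paired cysteines, had 27.2 and 24.3 scaled reads in Tdrd7 null and 29.7 and 30.4 in control libraries. It was the decrease in this arm, with a log2 fold change of -0.22 (limma adjusted p = 0.0422, SE 0.0685), or -0.24 without control replicate 1, which did not pass (limma adjusted p = 0.145). The other 7 ran from -0.18 for Ndufb7 to 0.20 for Ndufb6 and did not pass. The list as a whole had as many values above 0 as below, 5 each.

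**Figure D3:**
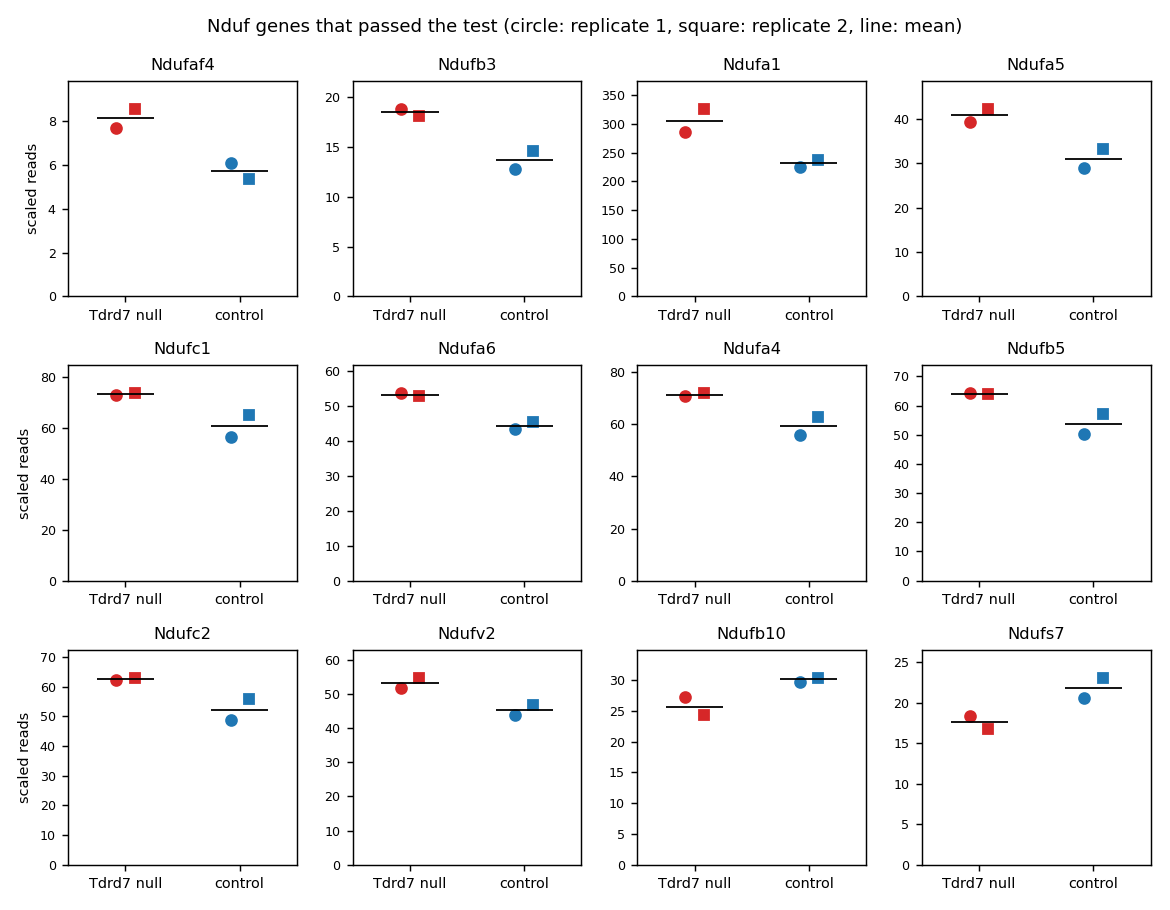
Scaled reads of the 12 Nduf genes that passed limma's test, in Tdrd7 null (left) and control (right) lenses, with 1 point per library and a line at the mean of 2. The 2 groups of libraries do not overlap in any panel, which is no separate result because the test picked these genes. Control replicate 2 is above control replicate 1 in 9 of the 10 genes that rose. The same holds for 42 of all 44 Nduf genes and 5353 of 10696 tested genes.

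Assembly factors help build the complex and are not part of the finished enzyme. Of 7 measured, 1 rose and 0 fell, against 10.1% and 7.88% of all tested genes. Ndufaf4, which acts early in assembly of the ubiquinone-binding module, had 7.71 and 8.56 scaled reads in Tdrd7 null libraries, against 6.08 and 5.35 in control libraries. The mean was 8.14 ± 0.598 against 5.71 ± 0.518 (SD, n = 2 each), and the log2 fold change of 0.45 (limma adjusted p = 0.00921, SE 0.0969) was the largest of the 44. It was 0.52 without control replicate 1 (limma adjusted p = 0.0449) and 0.37 without control replicate 2 (limma adjusted p = 0.0965), with the spread in both fits taken from the Tdrd7 null pools alone. Ndufaf2, a paralog of the subunit Ndufa12, stood at 0.29 and missed the threshold (limma adjusted p = 0.0819). Ndufaf1, Ndufaf3, Ndufaf5, Ndufaf6 and Ndufaf7 lay between -0.16 and 0.17 and did not pass.

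Of the 13 assembly factors listed that carry other symbols, 10 were measured, and 1 rose and 0 fell. Over all tested genes 10.1% rose and 7.88% fell. Lyrm2, a small LYR-motif protein, had 11.6 and 11.9 scaled reads in Tdrd7 null libraries, against 8.59 and 8.49 in control libraries, a log2 fold change of 0.42 (limma adjusted p = 0.00502, SE 0.0793). With the trend on GC content and length removed it stood at 0.18 (limma adjusted p = 0.382). The other 9 ran from -0.32 for Foxred1 to 0.23 for Nubpl. Ndufab1, the mitochondrial acyl carrier protein, had 16.8 and 13.9 scaled reads in Tdrd7 null and 14.6 and 17.5 in control libraries, so its groups overlapped (log2 fold change -0.06). Ndufa4, named as a complex I subunit but now placed with cytochrome c oxidase, had 70.9 and 71.9 scaled reads in Tdrd7 null and 55.9 and 62.9 in control libraries. It rose by a log2 fold change of 0.26 (limma adjusted p = 0.014, SE 0.0626), or 0.18 without control replicate 1, which did not pass (limma adjusted p = 0.145).

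The direction of change within the family went with base composition of the transcript. GC content ran from 39.5% in Ndufaf4 to 60.4% in Ndufa13, with a median of 51.4%, against 50.3% over all tested genes. The 10 genes that rose had a median of 46.2% and the 2 that fell 57.5%. Among the 7 genes under 45% GC, 5 rose and the median log2 fold change was 0.26, while over all 2377 genes of that class 29.7% rose and the median was 0.16. Among the 12 genes at 55% or more, 2 fell and the median was -0.13, while over all 2650 genes of that class 22.2% fell and the median was -0.15. Across the 44 genes, which share the same 4 libraries, the log2 fold change and GC content had a Pearson's r of -0.695 and a Spearman's rho of -0.669. Over all 10656 tested genes with a GC value they were -0.606 and -0.634.

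Once a smooth trend on GC content and length was taken out of every library, 1 member rose and 0 fell, where 1.71% of all tested genes rose and 1.11% fell (2.82% in either direction), and 11 of the 44 had an unadjusted p under 0.05, which is 25%, against 17.8% of all tested genes. The gene was Ndufa5, at a log2 fold change of 0.30 (limma adjusted p = 0.0265, SE 0.0632), and without control replicate 1 it did not pass there (0.24, limma adjusted p = 0.139). The family's median was then 0.03. Of the 12 calls, 6 shrank to 50% of their size or less, among them Ndufa1 (0.18), Ndufv2 (0.02), Ndufa4 (0.01) and Ndufc1 (0.08). With the main transcript model Ndufa6 and Ndufb10 stayed nearly as large, at 0.20 and -0.21, and missed the threshold (limma adjusted p = 0.0718 and 0.114). Ndufb3, Ndufb5, Ndufc2, Ndufaf4 and Ndufs7 stood at 0.20, 0.14, 0.12, 0.23 and -0.18 and did not pass either. With GC content and length of the shortest coding transcript of each gene in place of the main one, Ndufa5 and Ndufa1 rose (0.30 and 0.25, limma adjusted p = 0.0228 and 0.0295), while Ndufa6 stood at 0.03.

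**Figure D4:**
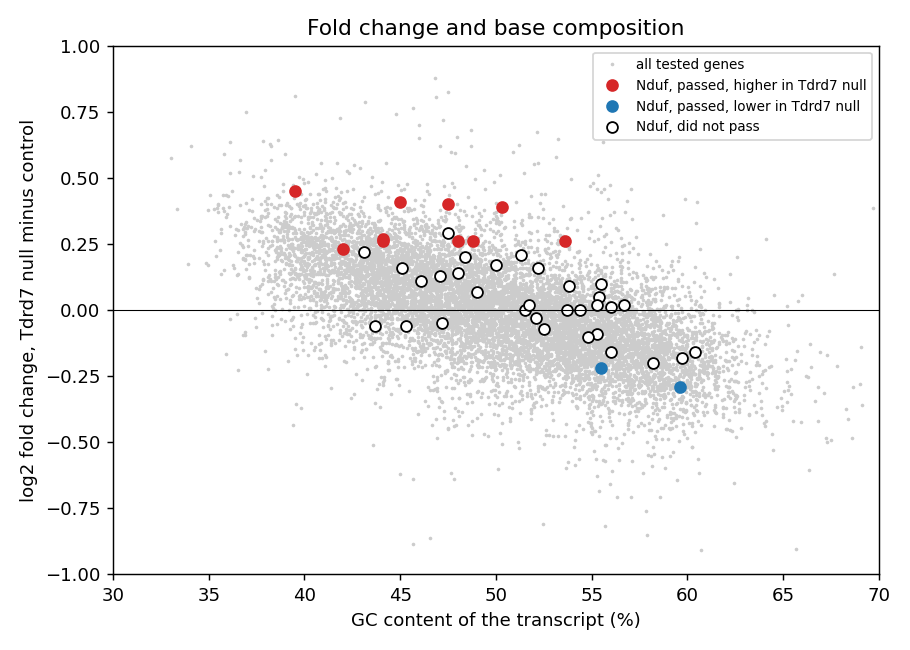
Log2 fold change in Tdrd7 null against control lenses (vertical) against GC content of the transcript in percent (horizontal), for all tested genes (grey) and the 44 Nduf genes (circles). Members that rose lie between 39.5% and 53.6% GC and those that fell at 55.5% and 59.6%, along the same downward trend as all genes; 9 of 10656 genes lie outside the axes.

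NRF1 and YY1 are known regulators of nuclear respiratory genes, and upstream sequences are shown for the 4 members with the largest increases and for the one with the larger decrease, chosen after their values were seen. RefSeq windows (GRCm38.p6) from 250 bases before to 50 after a start site were at hand for 39 of the 44 genes, in 41 windows. The 200 bases before the start site are given 5′ to 3′, with capitals marking matches to the NRF1 motif (GCGCA, any base, GCGC) or to ATGGCGG (YY1) on either strand.
Ndufaf4 (chr4:24897883-24898082, plus strand): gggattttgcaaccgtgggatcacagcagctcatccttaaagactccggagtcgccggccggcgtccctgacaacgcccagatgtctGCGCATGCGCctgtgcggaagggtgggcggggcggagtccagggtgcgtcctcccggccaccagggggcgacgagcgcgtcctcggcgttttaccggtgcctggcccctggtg
Ndufb3 (chr1:58586197-58586396, plus strand): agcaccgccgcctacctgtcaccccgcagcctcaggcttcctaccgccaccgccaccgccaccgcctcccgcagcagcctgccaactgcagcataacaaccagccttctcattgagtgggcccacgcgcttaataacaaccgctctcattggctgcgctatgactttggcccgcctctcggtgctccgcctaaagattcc
Ndufa1 (chrX:37191239-37191438, minus strand): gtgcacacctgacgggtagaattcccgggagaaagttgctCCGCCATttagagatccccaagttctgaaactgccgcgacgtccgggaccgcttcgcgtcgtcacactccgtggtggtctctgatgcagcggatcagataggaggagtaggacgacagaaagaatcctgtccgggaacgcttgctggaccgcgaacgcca
Ndufa5 (chr6:24527691-24527890, minus strand): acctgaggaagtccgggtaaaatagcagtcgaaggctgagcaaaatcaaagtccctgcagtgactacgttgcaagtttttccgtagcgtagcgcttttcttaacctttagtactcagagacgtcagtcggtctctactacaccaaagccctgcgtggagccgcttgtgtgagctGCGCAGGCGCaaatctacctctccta
Ndufs7 (chr10:80249249-80249448, plus strand): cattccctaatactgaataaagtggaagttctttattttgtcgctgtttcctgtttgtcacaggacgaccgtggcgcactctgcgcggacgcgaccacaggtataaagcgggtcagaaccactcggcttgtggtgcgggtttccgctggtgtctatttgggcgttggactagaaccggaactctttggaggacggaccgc
Ndufaf4 and Ndufa5 hold an NRF1 match and Ndufa1 a YY1 match on the opposite strand. Ndufb3, which rose, and Ndufs7, which fell, hold neither in the 200 bases shown. The RefSeq start sites of Ndufa5 and Ndufs7 lie inside the span that GENCODE M21 gives the gene, and the Ndufs7 stretch overlaps an exon of another Ndufs7 transcript. In the deposited coordinates Ndufb3 starts at 58586384, so the last bases of its stretch also lie inside the gene span.

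Both motifs lay in a larger share of the family's windows than of all windows, which is a description with no test. The NRF1 motif lay in 10 of 41 windows (24.4%), against 4.60% of all 32851 windows and 10.7% of the 10446 windows of tested genes. ATGGCGG also lay in 10 of 41 windows (24.4%), against 4.05% of all windows and 8.59% of those of tested genes. The ETS motif CCGGAAG was in 12.2% of the family's windows and 18.2% of those of tested genes. The SP motif GGGCGG was in 51.2% of the family's windows and 64.7% of those of tested genes. CCAAT was in 31.7% of the family's windows and 37.9% of those of tested genes, and TATAAA in 12.2% and 6.43%. The NRF1 motif lay in windows of 9 genes, of which Ndufa5, Ndufa6 and Ndufaf4 rose and Ndufa8, Ndufa11, Ndufaf5, Ndufb4, Ndufs5 and Ndufs6 did not pass. ATGGCGG also lay in windows of 9 genes, of which Ndufa1, Ndufa5 and Ndufb5 rose, Ndufs7 fell and Ndufa7, Ndufa9, Ndufaf7, Ndufs4 and Ndufs6 did not pass. Of the 10 genes that rose, 5 had a match to either motif in a window and Ndufa4, Ndufb3, Ndufc1, Ndufc2 and Ndufv2 had none. Of the 2 that fell, 1 had a match, as did 10 of the 27 other genes with a window. The paired windows of Ndufa5 hold the same NRF1 match, and those of Ndufa7 the same YY1 match, so each is counted in 2 windows. Both strands were searched, no NRF1 match overlapped a YY1 match in the family's windows, and a match describes letters only.

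Of the 14 listed regulators of nuclear respiratory genes, 10 were measured, and 1 rose and 0 fell. Among all tested genes 10.1% rose and 7.88% fell. Gabpa, the DNA-binding subunit of an ETS-family activator of respiratory genes, had 53.6 and 50.7 scaled reads in Tdrd7 null libraries, against 43.6 and 42.8 in control libraries. The groups did not overlap, and the log2 fold change was 0.27 (limma adjusted p = 0.00902, SE 0.0577). It stood at 0.12 with the GC and length trend removed and missed the threshold (limma adjusted p = 0.296). Nrf1 had 9.12 and 10.9 scaled reads in Tdrd7 null and 10.9 and 9.60 in control libraries, which overlapped, and Yy1 stood at 0.15 and missed the threshold (limma adjusted p = 0.115). Of 7 mitochondrially encoded subunits 6 were measured, and 5 rose, with log2 fold changes from 0.30 to 0.62, and 0 fell, while mt-Nd5 stood at 0.13. The 6 transcripts had 33% to 37.6% GC, and 29.7% of all tested genes under 45% GC rose. Of these 6, 0 passed with the GC and length trend removed, and the 1 with an unadjusted p under 0.05 was mt-Nd5, then at -0.18, below 0. In all 6 control replicate 1 was above control replicate 2, the opposite order to that of 42 of the 44 nuclear genes.

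Levels per length differed widely between members. Scaled reads were divided by the length of the main transcript, in kb. Ndufa1 was highest, at 730 scaled reads per kb in Tdrd7 null lenses and 553 in control lenses, with control libraries at 539 and 567. Ndufb8 and Ndufa7, next in order, had means of 122 and 131 in Tdrd7 null lenses and 130 and 129 in control lenses. Ndufb8 libraries had 123 and 120 scaled reads per kb in Tdrd7 null lenses and 124 and 136 in control lenses, and Ndufa7 libraries 132 and 130 in Tdrd7 null and 124 and 134 in control lenses. Ndufa7 was above Ndufb8 in both Tdrd7 null libraries, and in control lenses their libraries overlapped. Ndufaf4 was lowest, at 2.24 in Tdrd7 null and 1.57 in control lenses, and the assembly factors had 2.24 to 10.8 in Tdrd7 null and 1.57 to 8.67 in control lenses. The core subunits lay between 12.1 (Ndufs1) and 54.6 (Ndufs3) in Tdrd7 null and between 10.8 and 51.3 in control lenses. The order depends on the transcript model for genes with long and short forms. With its shortest coding transcript Ndufb2 had 63.0 scaled reads per kb in Tdrd7 null and 65.9 in control lenses, compared with 6.56 in Tdrd7 null and 6.86 in control lenses with the main one. Ndufa1 stayed highest with either model. Ndufaf4 was lowest with either, but its length was the same in both (3632 nt). Shorter transcripts can only raise the values of other genes, so its place could not change.

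**Figure D5:**
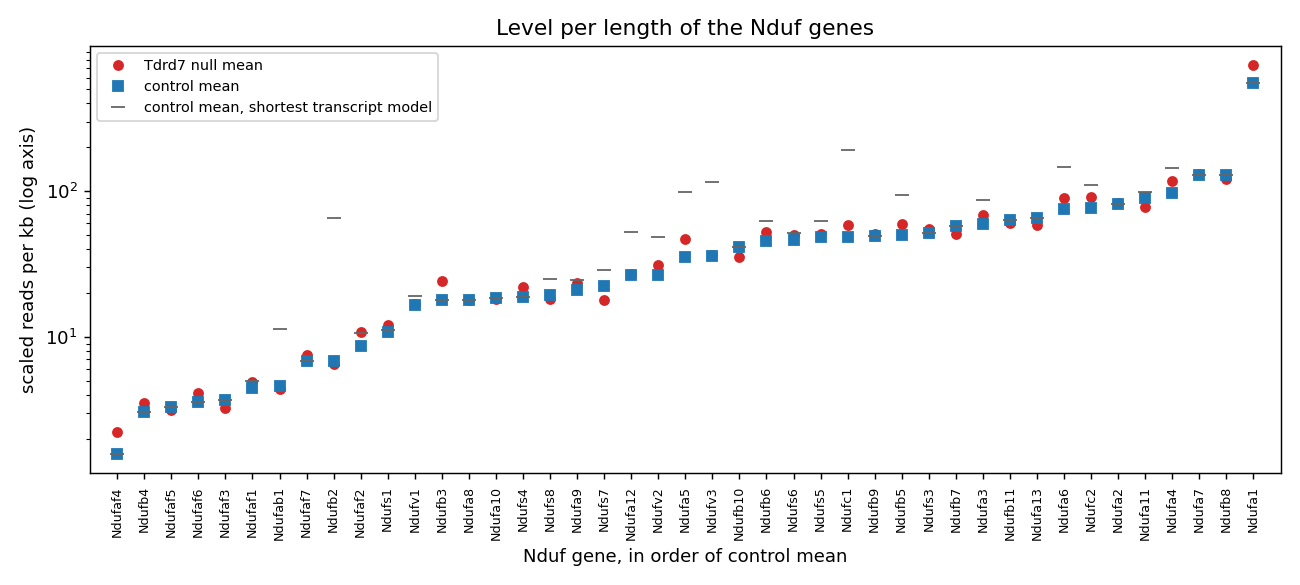
Scaled reads per kb of transcript (log axis) for 43 of the 44 Nduf genes in order of the control mean, with means of 2 Tdrd7 null libraries (circles) and 2 control libraries (squares). Dashes give the control mean with the shortest coding transcript. Ndufa1 lies highest and Ndufaf4 lowest with either transcript model, and the length of Ndufaf4 is the same in both.

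Some of these values are uncertain because reads could be shared. The library kit does not mark strand, and 11 of the 44 genes share 100 nt or more of exons with a neighbouring annotated gene, among them Ndufa13, Ndufab1, Ndufaf2, Ndufb2, Ndufb5, Ndufb6, Ndufb8, Ndufb9, Ndufb11 and Ndufs1. Of the genes that passed, only Ndufb5 is among them, with 616 nt shared with Mrpl47 on the opposite strand, which had 3.35 and 3.24 scaled reads in Tdrd7 null and 3.52 and 3.69 in control libraries. Processed copies at 95% identity or more over at least 100 nt are annotated for 8 genes, Ndufa12, Ndufab1, Ndufb3, Ndufb4, Ndufb11, Ndufs3, Ndufs5 and Ndufs6. Ndufb4 has a copy identical over 390 nt and was the lowest subunit per length with the main transcript model. It had 3.62 and 3.39 scaled reads per kb in Tdrd7 null and 3.25 and 2.8 in control libraries. Ndufb3 was the gene with a processed copy (96.8% identity over 282 nt) among those that passed. Ndufc1, which also passed, shares stretches of 112 to 130 nt at 95% identity or more with transcripts of 7 other genes, among them Sirt5 and Ube2e1, and Ndufaf7 shares stretches of at least 100 nt with 31 other genes.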

How the data were processed

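RNA of whole postnatal day 4 lenses was measured in 2 Tdrd7 null and 2 control pools. Per the series' design text, oligo-dT selected RNA went into TruSeq version 2 libraries, a kit that does not mark strand. The submitters' processing notes list the mm10 build (also GRCm38) and the tools Cufflinks, Cuffnorm, TopHat2 2.0.9 and Trimmomatic. The sources used here name neither the read counter nor the scaling step. The deposited signal values were whole multiples of 1 step per library (within 0.001 of a read, 100% of values), and the libraries' factors matched TMM scaling recomputed from the reads to a relative difference of 2.1e-10. Low genes had been left out, since every gene listed reached at least 1.02 in a library.

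Genotypes were compared on log2(scaled reads + 1) with limma 3.58.1 (R 4.3.3, trended prior, two-sided, Benjamini-Hochberg over 10696 genes with a mean of at least 1), and called at adjusted p under 0.05. The fit was also run on simulated data with the same fixed spread for all genes, a simpler setting than these libraries. No result here rests on that run. Each gene's GC content and length are those of its longest principal transcript in GENCODE M21, or its longest basic one where none is marked principal (10750 of 10790 genes, all 44 members), and their trend was removed with splines of 5 degrees of freedom. Copies were sought with BLAST 2.17.0. Values of 1 member are counted in the totals and not reported here by name. Full values are given for the other core subunits, the 8 called members with the smallest p in each direction, called assembly factors and the extremes of level per length. Ndufc2 and uncalled genes with values were chosen after their values were seen. The family and the lists were chosen with earlier results of these data known. Same-numbered libraries deviated from their group means with r = -0.151 across genes.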

Additional observations from a re-analysis of the deposited data

How the results depend on the processing

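TMM scaling equals the deposited scaling and so tested nothing. Pseudocounts of 0.1 and 5, no filter and median-of-ratios scaling left 10 Nduf genes called higher and 2 lower; a minimum mean of 5 gave 11 and 3 and a robust prior 13 and 3. The called counts of Nduf genes higher, Nduf genes lower and all genes were 10, 2 and 1920 in the main setting. They were 0, 0 and 16 with a prior without the intensity trend. With the GC and length trend removed they were 1, 0 and 300, and 2, 0 and 433 with the shortest transcript model. Scaling by the total without crystallins called 4 Nduf genes lower, as did an adjusted p under 0.1, which called 15 higher. Leaving out each library gave 2 to 11 higher, 0 to 3 lower, 404 to 2136 genes in all and a median log2 fold change over the Nduf genes of -0.009 to 0.119, against 0.081. With the GC and length trend removed, leaving out each library gave 0 to 3 higher, 0 to 3 lower, 181 to 1046 genes in all (301 without control replicate 2, 412 without Tdrd7 null replicate 2) and a median of -0.012 to 0.056 (0.007 without Tdrd7 null replicate 2). In these fits Ndufa4, Ndufc1 and Ndufv2 turned to -0.03, -0.00 and -0.02 without control replicate 1, and Ndufv2 to -0.01 without Tdrd7 null replicate 2. The cause of these changes was not tested.

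The labels give both genotypes replicate numbers 1 and 2 and do not say that a number marks a shared batch. With the replicate block the counts were 14 higher, 3 lower and 2117 in all, and 1, 0 and 378 with the GC and length trend removed as well. A crossed pairing, chosen after seeing the data because same-numbered libraries deviated in opposite directions (r = -0.151), gave 15, 5 and 3036. In the replicate block and the crossed pairing limma's prior had infinite degrees of freedom without the trend removed. Each gene's own spread between pools was then not used, so the larger counts do not show a gain from blocking. With the trend removed, the prior had 520 and 674 degrees of freedom without Tdrd7 null replicate 1 and 2, beside 1 residual degree. Each gene's own spread was almost unused in those fits too. The shortest transcript model and leaving out libraries with the trend removed were also chosen after seeing the data. Planned count models on whole reads were not run. With 2 pools per genotype, small differences in the less abundant assembly factors could not be told from spread.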
